A study of Mus musculus with 4 samples.

Results

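The semaphorin, plexin, Eph and ephrin genes were taken as every gene of the RefSeq mouse gene table whose symbol joins Sema with a number, Plxn with a letter from a to d, or Epha, Ephb, Efna or Efnb with a number. The rule found 52 genes, 51 of them among the 21900 protein-coding genes and 1 a noncoding antisense gene, Plxna4os1, which was named in neither list of regions. DNA bound by DNMT3B, a de novo DNA methyltransferase that adds methyl groups to cytosine, was mapped by chromatin immunoprecipitation with sequencing (ChIP-seq) in lung metastases of 4T1, a mammary tumour cell line carried in BALB/c mice. The 4 libraries were DNMT3B ChIP from the lungs labelled 3 and 5 and input DNA, with no antibody, from the lungs labelled 3 and 5. Whether tumour cells were separated from lung tissue, and whether the lungs came from separate mice, the labels do not say, and all libraries come from 1 tumour line. There was no untreated or normal-lung group.

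The data were 2 lists of positions for the series as a whole. MACS, which finds narrow enrichment, gave 1704 distinct regions with their nearest and overlapping genes. SICER, which finds broad enrichment, gave 8242 islands, each listed with 1 gene. Neither list holds a read count, a score or a value per library. The depth is therefore unknown, no spread between replicates exists, and no test between groups was possible. The values below are counts and positions. Exact 95% binomial intervals are given for some shares and cover counting error only. No expression was measured, so cell type markers could not be checked.

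These 4 families carry short-range and secreted guidance signals between cells. Semaphorins are ligands with a shared sema domain. Class 3 semaphorins are secreted and the other vertebrate classes are held in the membrane, and most signal through plexins. Eph receptors are receptor tyrosine kinases, and their ephrin ligands sit on neighbouring cells, A-type ephrins by a lipid anchor and B-type ephrins by a transmembrane segment. Known for steering growing axons, they also shape blood vessels and epithelia, and several members act in carcinomas.

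Promoters of the members on which the narrow regions turn are shown first, because MACS regions lay within 1 kb of their gene starts and DNMT3B acts on CG dinucleotides. The order was by number of distinct MACS regions within members that had one within 1 kb of the start, then by alphabet, which gave Efnb2, Ephb3, Efnb3 and Epha3. Efna1, the first member by alphabet with neither a region nor an island, stands as a contrast. Each run is the 250 bases before the RefSeq gene start in GRCm38.p6, read 5′ to 3′ on the strand of the gene, with every CG in capitals. Efnb3 has no entry. The runs are not the sequences under the MACS regions. By the printed positions, the Ephb3 and Epha3 runs do not reach a region of their gene. The Efnb2 run overlaps the upstream region only at its 5′ end.
Efnb2, chr8:8661243-8661492, minus strand: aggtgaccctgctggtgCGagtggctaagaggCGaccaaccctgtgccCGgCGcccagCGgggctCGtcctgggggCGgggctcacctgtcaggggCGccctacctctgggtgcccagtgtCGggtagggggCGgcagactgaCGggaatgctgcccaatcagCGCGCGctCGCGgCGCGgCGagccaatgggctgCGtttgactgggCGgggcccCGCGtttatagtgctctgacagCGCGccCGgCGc
Ephb3, chr16:21204545-21204794, plus strand: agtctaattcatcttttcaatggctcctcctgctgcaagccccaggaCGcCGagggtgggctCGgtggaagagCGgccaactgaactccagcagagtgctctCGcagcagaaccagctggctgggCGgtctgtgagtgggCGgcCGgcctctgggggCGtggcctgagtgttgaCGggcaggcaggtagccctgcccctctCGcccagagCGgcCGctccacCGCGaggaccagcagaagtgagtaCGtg
Epha3, chr16:63864176-63864425, minus strand: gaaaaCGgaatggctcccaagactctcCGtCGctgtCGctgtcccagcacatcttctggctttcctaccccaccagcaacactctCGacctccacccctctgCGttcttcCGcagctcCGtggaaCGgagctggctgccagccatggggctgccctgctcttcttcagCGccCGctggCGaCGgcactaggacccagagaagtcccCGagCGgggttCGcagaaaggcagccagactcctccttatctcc
Efna1, chr3:89280952-89281201, minus strand: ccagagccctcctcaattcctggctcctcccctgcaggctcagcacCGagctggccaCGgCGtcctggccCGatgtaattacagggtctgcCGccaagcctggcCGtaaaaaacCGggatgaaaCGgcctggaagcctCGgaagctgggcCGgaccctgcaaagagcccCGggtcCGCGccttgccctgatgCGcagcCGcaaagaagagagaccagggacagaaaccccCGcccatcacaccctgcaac
The Efnb2 run held 27 CG, and each of the other 3 runs held 16, the contrast Efna1 included. The same motif, CG, which reads alike on both strands, occurs at least once in the same 250-base window of 93.4% of the 21263 promoters of protein-coding genes. As many as in Efnb2 were present in 11% of them, and as many as in the others in 34.1%. These letters are those of the C57BL/6J reference and carry no methylation measurement.

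Of the 51 protein-coding members, 10 (19.6%, exact 95% interval 9.82 to 33.1) were named by a MACS region, against 6.14% of all protein-coding genes. A SICER island was paired with 23 members (45.1%, 31.1 to 59.7), against 17.2%. Both were present at 8 members, or 15.7% against 2.46%. A region without an island was found at 2 members and an island without a region at 15. Neither was present at 26 of the 51, against 17323 of all 21900 protein-coding genes. As a group, the members thus stood above the genome-wide share in both lists. That comparison was made as a description, with no test of the list. Members are also not independent, since several are neighbours.

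Among the 7 secreted class 3 semaphorins, Sema3f had both calls and Sema3b an island. Of the 13 membrane semaphorins, Sema4g and Sema5b had both, and Sema4b, Sema4d, Sema4f, Sema6b and Sema7a had islands. Of the 9 plexins, the receptors for these ligands, Plxnd1 had both and Plxna1, Plxnb1 and Plxnb2 had islands. The 9 EphA receptors split, with islands at Epha1 and Epha2, MACS regions at Epha3 and Epha6, and no member with both. Of the 5 EphB receptors, Ephb3 and Ephb4 had both and Ephb2 an island. Efna3, Efna4 and Efna5 had islands among the 5 A-type ephrins, none of which had a MACS region, and Efnb2 and Efnb3 had both among the 3 B-type ephrins. With 3 to 13 genes a family, the intervals of these shares overlap, from 0.281 to 48.2% for plexins to 9.43 to 99.2% for B-type ephrins with a MACS region.

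**Figure D1:**
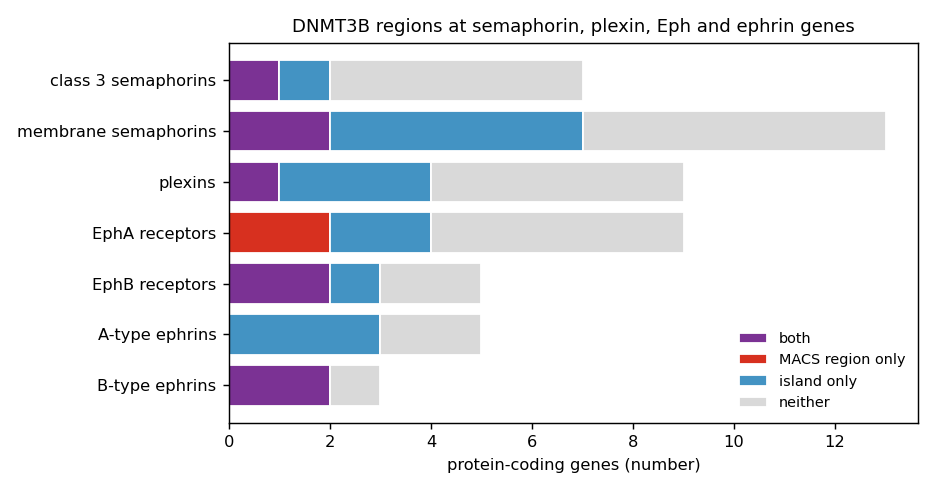
Number of protein-coding genes in each family (horizontal axis) with both a MACS region and a SICER island, a MACS region only, an island only, or neither. The 2 EphA receptors with a region have no island, and no A-type ephrin has a region.

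The 26 members in neither list were Sema3a, Sema3c, Sema3d, Sema3e, Sema3g, Sema4a, Sema4c, Sema5a, Sema6a, Sema6c, Sema6d, Plxna2, Plxna3, Plxna4, Plxnb3, Plxnc1, Epha4, Epha5, Epha7, Epha8, Epha10, Ephb1, Ephb6, Efna1, Efna2 and Efnb1. They include Sema3a, the founding secreted repellent of axons, and Epha4, a receptor that binds ephrins of both types. Efnb1, Plxna3 and Plxnb3 lie on chromosome X, where 0.311% of all protein-coding genes had a MACS region and the same share had an island. Absence from a list says only that the gene is not named there. The name of the MACS list carries the label p05 and that of the SICER list the label top20, so each may hold a selection, and genes with weaker enrichment may be left out. What these labels stand for is not stated.

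Of the 23 members with an island, 19 lay below the longest 20% of genes, as did 2881 of all 3771 genes with an island. Of the 20 members among the longest 20% of all protein-coding genes (57128 bp and more), 4 had an island (20%), against 20.3% of all genes of that length. Of the 31 shorter members, 19 had one (61.3%, 42.2 to 78.2), against 16.4% of shorter genes. The higher share than in all genes thus lay in members below that length, although the difference between the length groups was not tested. The 4 long members with an island were Efna5, Ephb2, Sema4d and Sema5b. For MACS regions the shares were 3 of 20 members (15%) against 7.99%, and 7 of 31 (22.6%) against 5.67%. Members with neither call had a median length of 136.9 kb, against 15.7 kb for all genes with neither, while members with an island were about as long (26.5 kb) as all genes with an island (23.4 kb).

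**Figure D2:**
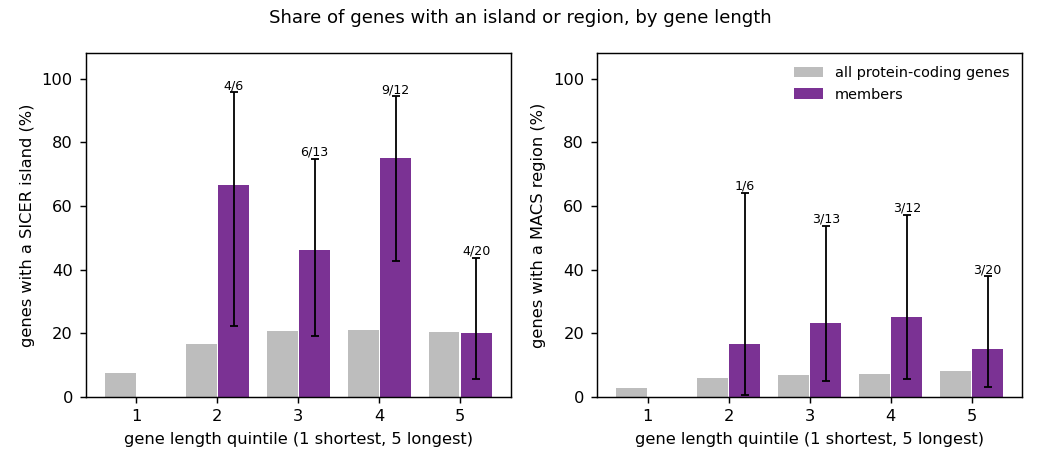
Share of genes (percent, vertical axes) with a SICER island (left) and a MACS region (right) in quintiles of gene length, for all protein-coding genes (grey) and members (purple, exact 95% intervals, number of genes above). Member shares of islands exceed those of all genes in quintiles 2 to 4 and lie near them in quintile 5, where 4 of 20 members have one.

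The members held 12 of the 1704 MACS regions, 9 of them (75%, exact 95% interval 42.8 to 94.5) with a midpoint within 1 kb of the deposited gene start. Of all 1704 regions, 964 had a known start, and 69.9% of these lay that near. The position of the members' regions was thus close to that of the 964, and the rest of the list could not be placed. MACS positions carry at most 6 significant digits, so they are known to steps of 10, 100 or 1000 bp, and distances follow that rounding. The gene bodies, islands and regions are drawn to scale in the map of distances from the gene start.

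**Figure D3:**
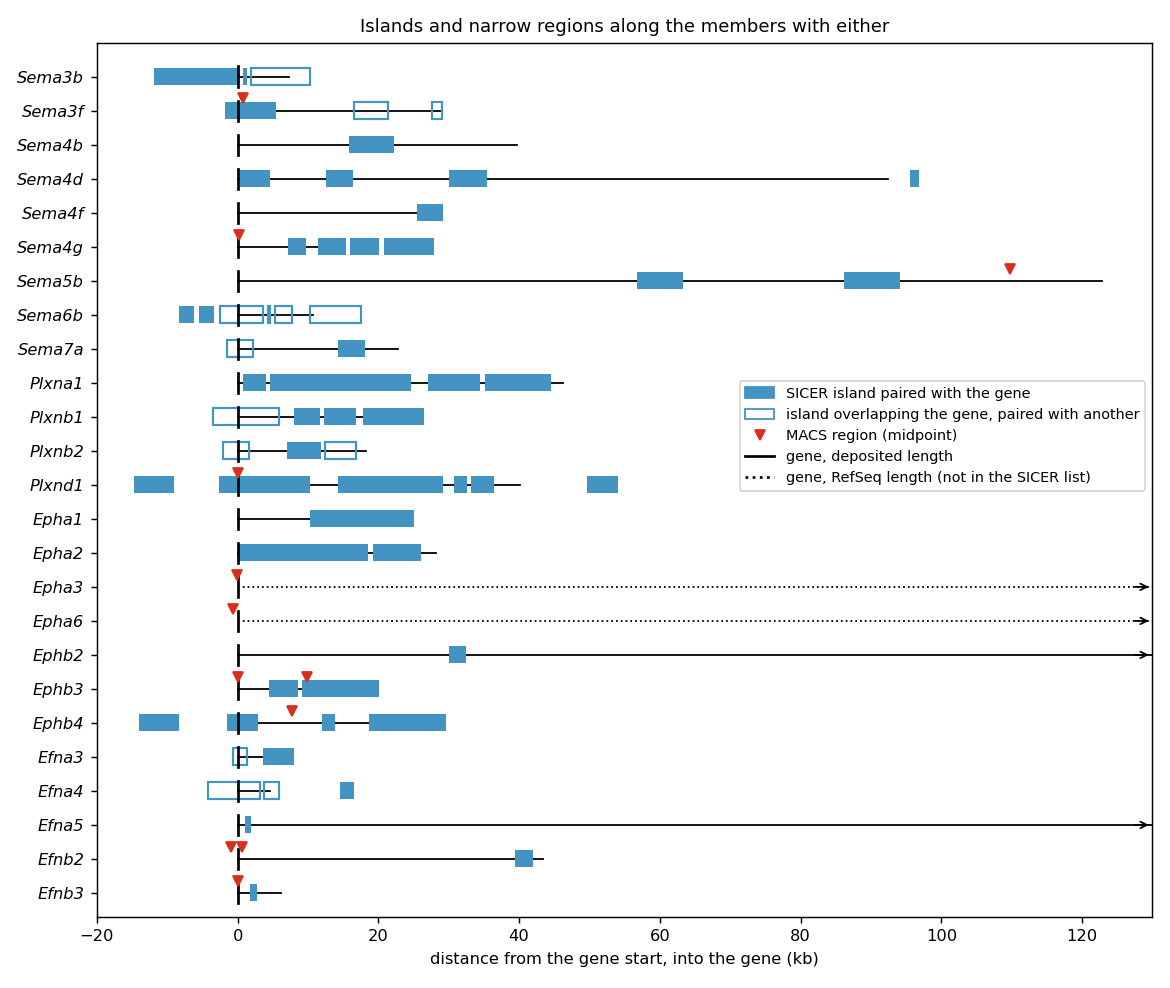
Distance from the gene start in kb, positive into the gene, for the 25 members with a region or an island. Filled bars are islands paired with the gene, open bars islands that overlap it but were paired with another gene, triangles MACS midpoints, and arrows mark genes that run past the edge. Triangles lie at the start of 8 of the 10 members that have them.

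Of the 3 B-type ephrin genes, Efnb2 and Efnb3 had MACS regions at their starts and an island inside, and Efnb1 had neither. Efnb2, the ligand that marks arterial endothelium, had a region at chr8:8661460-8661820, 686 bp upstream by the deposited distance, and another in an intron at chr8:8660080-8660130. Their midpoints lay 867 bp before and 668 bp after the deposited start, in the finest rounding of the list. By the RefSeq start of the printed Efnb2 promoter, the upstream midpoint would lie nearer. The intronic one would lie more than 1 kb into the gene, so it counts as within 1 kb only by the deposited start. Neither touched an island, since the island of Efnb2, of 2600 bp, lay 39374 to 41973 bp into the gene. Efnb3 had a region across its start, chr11:69373600-69373800, of which 70.1% lay in the gene, and an island of 1000 bp that began 1740 bp downstream of the start.

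Among Eph receptors, Ephb3 had 2 regions and 2 islands. One region crossed its deposited start at chr16:21204800-21205000 with 66.2% in the gene. By the RefSeq start of the printed Ephb3 promoter, this region would lie inside the gene, at its edge and within rounding. The other, chr16:21214600-21214800, lay 9833 bp into the gene in an island of 11000 bp that ran past the gene end. In Ephb4, the receptor for ephrin-B2 in veins, the region at position 137799000 of chromosome 5 (step of 1000 bp) fell between islands, about 7.7 kb into the gene. Ephb4 also had 4 islands, and one of 4400 bp covered its start, from 1536 bp before it to 2863 bp after. Epha3 had a region at chr16:63864000-63864100, 16 bp upstream of its start by the deposited distance, and Epha6 one at chr16:60606000-60606100, 642 bp upstream. By the RefSeq start of the printed Epha3 promoter, the Epha3 region would lie inside the gene. Neither of these long EphA genes was paired with an island.

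Plxnd1, the receptor of semaphorin 3E in vessels, had a MACS region at position 115945000 of chromosome 6, 23 bp inside its deposited start and rounded to 1000 bp. The region occupied 8 identical lines of the list, more than that of any other member. It lay in an island at chr6:115934800-115947599, which reached from 2576 bp before the start to 10223 bp into the gene. In Sema3f, a secreted ligand that binds neuropilin-2, the intronic region at position 107612000 of chromosome 9 lay 806 bp from the start, within an island of 7200 bp across that start. The region of Sema4g, chr19:45064000-45064100, lay 217 bp into the gene in an intron and outside islands. That of Sema5b, chr16:35651200-35651300, stood apart from the rest, 109.8 kb into the gene. In all, 3 of the 12 regions (25%, 5.49 to 57.2) shared a base with an island, against 30.6% of all regions. With every line counted, the share was 16 of 29 (55.2%), because the Plxnd1 and Ephb3 regions in islands were listed 8 and 6 times.

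Chromosome 16 and the deposited gene positions both went with the MACS calls, in groups of members that overlap. All 4 members on chromosome 16 (Epha3, Epha6, Ephb3 and Sema5b) had a region, where 35.3% of the protein-coding genes of that chromosome did. Elsewhere 6 of 47 members did (12.8%, 4.83 to 25.7), against 5.20%. For islands, 2 of these 4 members had one, against 24.9% of the genes of the chromosome, and 21 of the 47 others did (44.7%), against 17.0%. The gene ends that the SICER list gives were set beside those of GRCm38, the assembly of the mm10 build that the submitters' processing notes name. They were within 1 kb of it, at one gene end at least, for 3 of the 23 members with an island (Efnb2, Ephb3 and Sema5b), and all 3 had a MACS region. Of the other 20, 5 did (25%). Ephb3 and Sema5b are also on chromosome 16, so chromosome and gene position cannot be told apart for them. Over all genes with an island the shares were 50.2% of 285 and 11.3% of 3486. Among the 20, the smallest difference was 49.98 kb and that of Sema4b 7145 kb. On chromosome 6 the differences were nearly alike, 50.002 kb in Epha1, 50.006 kb in Plxna1 and Sema4f, and 49.983 kb in Plxnd1. On chromosome 9 they ran from 95.9 kb in Plxnb1 to 151.655 kb in Sema7a. Distances and gene pairings given for these 20 members hold only if regions and gene positions share a build. That was not tested, nor was the part of these positions in the members' MACS calls. The build of the printed region positions is not known.

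The 47 islands of the members covered 280.8 kb, with widths of 4400 bp at the median, where all islands have 4800 bp, and a range from 600 to 20000 bp. Inside the gene lay 27 of them (57.4%, against 46.9% of all islands), 7 covered the gene end (14.9% against 9.67%) and 4 the gene start only (8.51% against 12.3%). A MACS region was held by 6 of the 47 (12.8%), against 4.82% of all islands. At least 2 islands were paired with 11 of the 23 members (47.8%), about the share of all genes with an island (47.4%). At least 4 were paired with 5 of the 23 (21.7%), against 13.1%. These were Plxnd1 with 6 and Ephb4, Plxna1, Sema4d and Sema4g with 4 each.

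Islands filled much of several plexin and Eph genes. With islands of any pairing counted, a median of 39.9% of the gene body lay under islands over the 23 members, against 23.4% over all 3771 genes with an island. At least 50% of the body was covered in 10 of the 23 (43.5%), against 30.5%. Epha2, a receptor often abundant in carcinomas, had the highest share, 89.5% of 28165 bp. Its island of 18400 bp, at chr4:140857200-140875599, began 65 bp after the gene start, and a second of 6800 bp followed. Plxna1, a receptor that class 3 semaphorins use with neuropilins, followed Efna4 with 86.4%, from 4 islands that summed to 40000 bp and included the widest of the members, 20000 bp at chr6:89288000-89307999. Those islands left out the first 808 bp of the gene. Plxnd1 was covered to 75.2%, with a further island of 15000 bp at chr6:115915800-115930799.

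Islands covered less of some other members. The body of Efna5 lay under islands to 0.287%, by 1 island of 800 bp in a gene of 278362 bp, and that of Ephb2 to 1.32%. The body of Epha1 was covered to 30.5%, above the median of 23.4% of all genes with an island. Its island of 14800 bp, at chr6:42298200-42312999, covered the gene end and extended beyond it. The MACS region in that island was named for Zyx, which encodes a focal adhesion protein. Sema4d, the semaphorin that binds plexin-B1, was covered to 14.5%. In this gene 3 islands lay inside, the first 414 bp after the gene start, and another downstream.

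**Figure D4:**
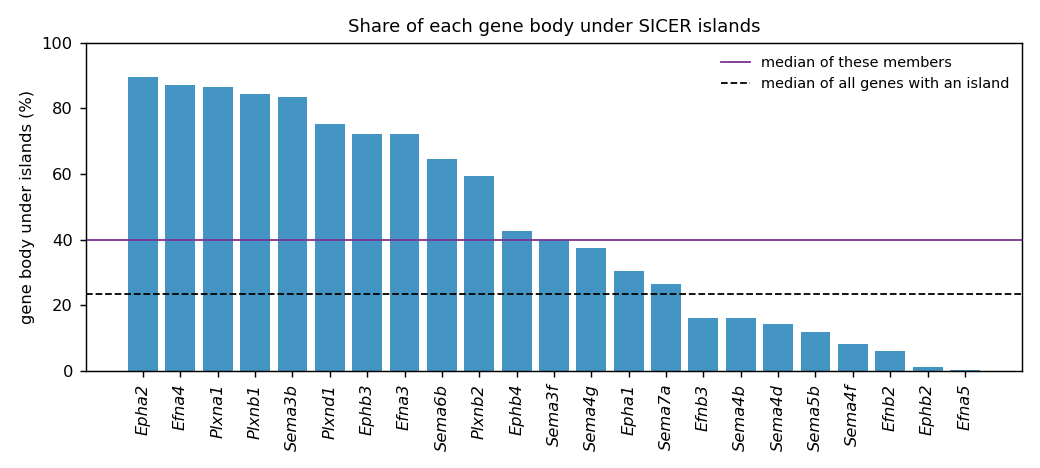
Percent of the deposited gene body under SICER islands for the 23 members with an island, with islands of any pairing counted. The purple line is their median (39.9%) and the dashed line that of all genes with an island (23.4%).

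Since an island carries only 1 gene name, some member starts lay under an island that carries another gene's name. The starts of Ephb4, Plxnd1, Sema3b and Sema3f lay under their own islands, 4 of 23 (17.4%), against 31% of all genes with an island. A further 6 starts lay under an island paired with a neighbour, those of Efna3, Efna4, Plxnb1, Plxnb2, Sema6b and Sema7a. By position, 10 of 23 starts (43.5%) were thus under an island, against 37.2% of all genes with an island. The direction of the comparison with all genes differs between these counts.

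For Plxnb1, the receptor of semaphorin 4D, the island across the start was chr9:108994400-109003799, paired with Ccdc72. The start of Plxnb2, its close relative, lay in chr15:89002600-89006399, paired with Fam116b. Sema7a, a lipid-anchored semaphorin, had its start in chr9:57786400-57790199, paired with Ubl7, and Sema6b in chr17:56269600-56275799, paired with Lrg1. The islands paired with Sema6b itself lay 3325 to 8324 bp upstream of the deposited start. Its deposited length was 10769 bp, against 17259 bp in the RefSeq table.

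Members also sat in 2 shared stretches. On chromosome 3, Efna3 and Efna4 are neighbours 10.5 kb apart, and 4 islands covered 50.6% of the 23.1 kb they span. The island chr3:89125400-89127399 was paired with Efna4 but lay across the start of Efna3, and the start of Efna4 lay in chr3:89138800-89146199, paired with Adam15, a membrane protease gene. Sema3b and Sema3f lie 76.1 kb apart on chromosome 9, and 12 islands paired with 6 genes covered 44.3% of the 112.4 kb from one to the other. The island across the start of Sema3b, chr9:107507600-107519599, reached 11866 bp upstream of it and held a MACS region named for Gnai2, which encodes a G protein subunit. These islands cannot be assigned to a single gene from the positions.

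CpG content was taken from the 300-base RefSeq promoter windows (250 bases before the start and 50 after), which listed 45 of the 51 members. The ratio of observed to expected CpG was a median of 0.66 over these, against 0.56 over all protein-coding genes. The 6 listed members with a MACS region within 1 kb of the start lay between 0.55 and 0.90 with a median of 0.71, below the 0.81 of all genes with such a region. Members with neither call ran from 0.13 to 1.06 with a median of 0.63, so the groups overlapped throughout. Both extremes occurred with and without a call: ratios were low in Sema4d (0.13, with 4 islands) and Plxnb3 (0.13, with none), and high in Efna5 (1.10, with 1 island) and Epha8 (1.06, with none). Start sites of the table may differ from those used in the lists.

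**Figure D5:**
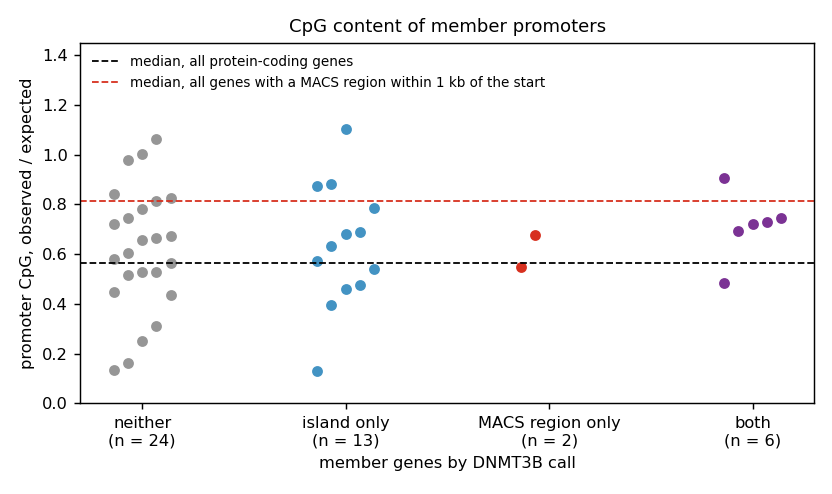
Observed over expected CpG in the 300-base promoter window of the 45 listed members (points), by call. The black dashed line is the median of all protein-coding genes (0.56) and the red one that of all genes with a MACS region within 1 kb of the start (0.81). Values of the groups overlap.

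Genes that work with these receptors were looked up in the same way. Of 69 coreceptors and intracellular effectors, 24 had an island (34.8%) and 6 a MACS region (8.70%), so their share of islands lay between that of all genes and that of the members, and their share of regions was near that of all genes. Both calls were present at Tiam1 (a Rac exchange factor, 2 regions and 9 islands), the kinase gene Src (1 and 8), Pick1 (a scaffold that binds Eph receptors, 1 and 1), Dpysl2 (a mediator of semaphorin 3A collapse, 1 and 1) and the cofilin gene Cfl1 (1 and 3). Tiam1 lies on chromosome 16, where 35.3% of protein-coding genes had a MACS region, against 5.20% elsewhere. Of 26 genes of the netrin, slit and related guidance families, 7 had an island (26.9%) and 3 a region (11.5%), with both at Ntn1 (2 regions and 4 islands) and Srgap2 (2 and 2).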

How the data were processed

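Per the submitters' processing notes, the authors aligned reads with Bowtie2 (version given as 2.10), called regions with MACS (version given as 1.4) and SICER, and used mm10. The name of the MACS list reads MACS2 and p05, and that of the SICER list top20. Neither label is explained, and no source used here gives the pooling of libraries or the gene annotation. The deposited values are base positions, distances and overlap lengths in bp. The MACS list held 4304 lines, and identical lines were counted once, giving 1704 regions. On 2 lines the end is a question mark, and the start was used in its place. Genes were matched to the RefSeq table of GRCm38.p6 by accession, symbol or unique synonym, and 3 regions and 4 islands had no match. Table positions served only to compare gene ends. A gene counted as having a region when named as nearest or overlapping, and an island when paired with it. Gene starts came from the SICER list or, for Epha3 and Epha6, from the deposited distance. Starts known in this way leave out genes without an island unless the region lay upstream. An overlap needed 1 bp. Parsing and distances were tested on made-up regions. Every member with a region or island was named. Members and gene lists were chosen with earlier results of these data known. Python 3.11.15 with pandas 2.3.3 and scipy 1.17.1 was used.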

Additional observations from a re-analysis of the deposited data

How the results depend on the processing

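With regions required to share a base with an island, 3 members had a MACS region in place of 10, and without chromosome 16, 6 did. With islands of at least 5000 bp, 13 members had one in place of 23. No share over all genes was set beside the counts for shared bases and for wide islands. They therefore do not show whether the members' higher share holds there. Member islands at a gene start numbered 10 in place of 4 when within 2 kb of it. No share over all islands was set beside that count. With islands of any pairing, the count was of genes whose start lay under one. It was also 10, and this setting was chosen after seeing the data. The other 16 of 21 alternatives stayed within 1.5 times the count or within the interval of the share. They include the share of regions in an island with every line counted, which went from 25% to 55.2%. That share stayed within its interval only because the interval was wide (5.49 to 57.2). No paired analysis was possible because no library has values of its own in either list, and none could be left out. Depth cannot be judged from these lists.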

Other observations

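Repeated lines of the MACS list were not more frequent where rounding was coarser. Regions in steps of 10 bp occupied 3.39 lines on average, those in steps of 100 bp 2.43 and those in steps of 1000 bp 2.20. The labels do not say what a repeated line stands for. Of the members, the Plxnd1 region had 8 lines and the Ephb3 region inside the gene 6, and the other 10 regions had 1 to 3.

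The island downstream of Sema4g, chr19:45079800-45083999, held 3 MACS regions, of which 2 were named for Mrpl43 and 1 for Peo1, genes of mitochondrial proteins. It was the member island with most regions.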
